A study of Caenorhabditis elegans with 2 samples.

Results

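The regions described here are the autosomal intronic regions of a DAF-12 binding profile in C. elegans larvae. A region was a member when its summit lay on an autosome, inside a protein-coding transcript, outside every annotated exon of any gene and more than 500 bp from every protein-coding transcript start. Of the 30000 regions of the pooled list, 6296 met this rule, out of 24119 autosomal regions. That list is labelled as peaks and background, so a member is a candidate region and not a called binding site. Membership used position only and no signal. It rested on the summit base alone, while pooled regions are 304 bp wide and extend past shorter introns. Introns under 200 bp held 690 members (10.96%). The same rule gave 6411 of 30000 regions in the replicate 1 list and 4562 of 23934 in the replicate 2 list.

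DAF-12 was profiled by ChIP-seq, in which DNA bound to a tagged protein is pulled down and sequenced, from whole larvae at the L4 stage. All worms were of strain OP222, which carries the eGFP-daf-12 insertion wgIs222 together with the unc-119(ed3) mutation on chromosome III. The recorded sex is male and female, pooled. There were 2 biological replicates of 1 group, with no other genotype, stage or treatment, so the data hold no contrast and no test between conditions. Because whole animals were used and the tagged receptor came from an added transgene, the cell type behind a region and binding of the untagged receptor cannot be told from these lists.

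DAF-12 is a nuclear receptor whose ligands are the dafachronic acids, steroid hormones made in favourable conditions. With ligand it drives reproductive development, and without it, together with its co-repressor DIN-1, it promotes dauer arrest. It also acts in the heterochronic pathway, which sets the order of larval stages. Introns of C. elegans genes, first introns above all, are known to hold enhancers, alternative promoters and small RNA genes. DAF-12 is known to bind hexamers such as AGTGCA and AGGACA, alone or as direct repeats, and these letters are called half-sites below.

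The sequences that follow are windows of 201 bp centred on the summit, on the plus strand of ce11 (the WBcel235 assembly, read from its RefSeq copy). Capitals mark AGTGCA or AGGACA half-sites and GAGAGAGA repeats on either strand. The first 4 are among the strongest members, with GA repeats in Y111B2A.12, vhp-1 and ceh-48 and none in zfp-1. The next 3 are strong members with an AGTGCA half-site. The last 2 hold half-sites as direct repeats with a 5 bp spacer.
Y111B2A.12, chrIII:12612572-12612772: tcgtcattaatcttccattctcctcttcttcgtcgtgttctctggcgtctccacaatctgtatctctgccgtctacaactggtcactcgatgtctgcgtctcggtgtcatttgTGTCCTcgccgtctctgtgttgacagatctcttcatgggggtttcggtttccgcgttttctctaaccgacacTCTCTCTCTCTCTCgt
vhp-1, chrII:5337141-5337341: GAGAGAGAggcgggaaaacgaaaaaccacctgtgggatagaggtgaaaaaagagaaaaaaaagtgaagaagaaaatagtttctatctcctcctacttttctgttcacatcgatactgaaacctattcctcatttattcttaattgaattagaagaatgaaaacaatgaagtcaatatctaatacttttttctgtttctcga
zfp-1, chrIII:8795808-8796008: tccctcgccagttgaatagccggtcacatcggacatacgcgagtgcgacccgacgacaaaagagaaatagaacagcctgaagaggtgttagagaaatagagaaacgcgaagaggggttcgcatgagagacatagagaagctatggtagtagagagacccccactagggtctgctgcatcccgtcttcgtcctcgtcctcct
ceh-48, chrIV:6814723-6814923: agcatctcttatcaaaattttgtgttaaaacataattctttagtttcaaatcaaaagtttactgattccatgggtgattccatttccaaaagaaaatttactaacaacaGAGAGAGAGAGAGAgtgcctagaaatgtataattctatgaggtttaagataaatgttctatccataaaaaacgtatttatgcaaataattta
ccch-1, chrV:11536399-11536599: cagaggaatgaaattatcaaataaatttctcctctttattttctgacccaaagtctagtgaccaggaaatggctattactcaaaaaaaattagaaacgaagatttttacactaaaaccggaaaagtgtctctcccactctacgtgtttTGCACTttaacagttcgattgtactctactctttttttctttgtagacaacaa
hlh-30, chrIV:4021358-4021558: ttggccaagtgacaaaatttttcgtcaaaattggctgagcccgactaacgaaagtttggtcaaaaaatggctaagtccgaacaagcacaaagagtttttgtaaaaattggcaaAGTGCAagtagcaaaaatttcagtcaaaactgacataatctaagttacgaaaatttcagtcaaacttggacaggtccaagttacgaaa
unc-22, chrIV:11993124-11993324: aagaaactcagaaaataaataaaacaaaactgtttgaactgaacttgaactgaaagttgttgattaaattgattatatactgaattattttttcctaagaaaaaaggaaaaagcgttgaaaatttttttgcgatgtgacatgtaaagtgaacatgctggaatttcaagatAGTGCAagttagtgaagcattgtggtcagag
ulp-4, chrII:8130890-8131090: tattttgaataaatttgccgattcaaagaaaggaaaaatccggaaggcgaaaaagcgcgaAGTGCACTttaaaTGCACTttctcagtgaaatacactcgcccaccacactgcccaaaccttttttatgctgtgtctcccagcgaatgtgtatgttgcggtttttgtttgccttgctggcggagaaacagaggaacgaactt
gcn-1, chrIII:2170877-2171077: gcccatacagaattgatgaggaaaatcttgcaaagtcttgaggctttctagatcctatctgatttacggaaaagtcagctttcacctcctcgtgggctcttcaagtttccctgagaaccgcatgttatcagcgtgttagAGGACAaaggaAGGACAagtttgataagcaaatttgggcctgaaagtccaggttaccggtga

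Each region carries a signal, which is the authors' own enrichment value on a scale that is not given in the sources used here. It was used only to rank regions within a list, rank 1 being the strongest. The signal has no replicate error, read depth is unknown, and pooled regions draw on the same reads as the replicate lists, so presence in a replicate list is not independent evidence. A pooled region was counted as met by a replicate when it shared at least 1 bp with a region of that replicate's list. A replicate region met in this way can have its own summit outside the intron. The shares below are descriptions over regions or bases, not tests.

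Introns held about as many regions as their length would give under an even spread over the autosomes. Members made up 26.1% of autosomal regions, and the bases open to the rule made up 26.06% of the autosomes, or 21.51 Mb. In the replicate 1 list the share was 26.49%, and in the replicate 2 list 23.91%. The density of members was 292.7 per Mb of intron, against 323.6 per Mb for regions within 500 bp of a start, 318 for intergenic regions, 317.7 for other exons (untranslated or non-coding) and 206.3 for coding exons. Introns of the X chromosome held 1542 regions at 360.7 per Mb. The order of introns below starts and intergenic sequence was the same in replicate 1 (298 against 319 and 313.2 per Mb) and in replicate 2 (212.1 against 256.9 and 236.7 per Mb).

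**Figure D1:**
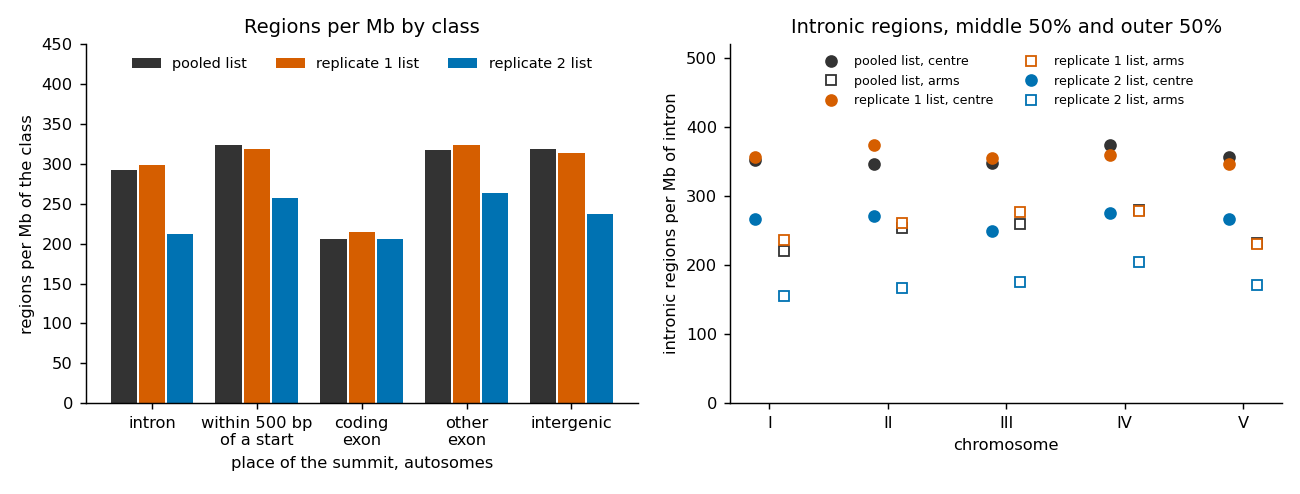
Left, regions per Mb of each class of autosomal sequence in the pooled, replicate 1 and replicate 2 lists. Right, intronic regions per Mb of intron in the middle 50% (centre) and outer 50% (arms) of each autosome; every centre point lies above the arms point of the same list and chromosome.

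Members were spread unevenly along the chromosomes. The middle of each autosome, between 25% and 75% of its length, held 3157 members at 355.8 per Mb of intron, and the arms held 3139 at 248.4 per Mb. Replicate 1 gave 357.6 per Mb in the centres and 256.2 in the arms, and replicate 2 gave 266 and 174.2. All 5 autosomes had the denser centre in each of the 3 lists. The same direction held in every other autosomal class, with a centre to arm ratio of 1.433 in introns, against 1.285 at starts, 1.345 in intergenic sequence, 1.417 in coding exons and 1.495 in other exons.

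Chromosomes differed less than centres and arms. Chromosome IV had the highest density, with 320.3 members per Mb of intron, and chromosome I the lowest, with 275.6. Chromosomes II, III and V lay between them at 293.4, 291.8 and 284.7 per Mb. In replicate 1 the highest was again chromosome IV at 313.1, while the lowest was chromosome V at 279.7.

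The signals of members were of ordinary size for the list. They ran from 4.122 to 18.84 with a median of 5.632, against medians of 5.741 at starts, 5.818 in intergenic sequence, 5.922 in other exons, 5.497 in coding exons and 5.783 in introns of the X chromosome. The median member stood at the 48.11th percentile of autosomal regions in the pooled list, and at 48.72 and 47.13 in the replicate 1 and replicate 2 lists. The largest intronic signal was 18.84, close to the 18.8 of coding exons, against 53.12 in intergenic sequence, 39.49 in other exons and 27.11 near starts. At the limit of the rule, 240 members with summits less than 50 bp outside it had a median signal of 6.002, and 200 intronic summits less than 50 bp inside it, which were not members, had 5.861. The nearest member had a signal of 5.692 and the nearest non-member 9.162.

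**Figure D2:**
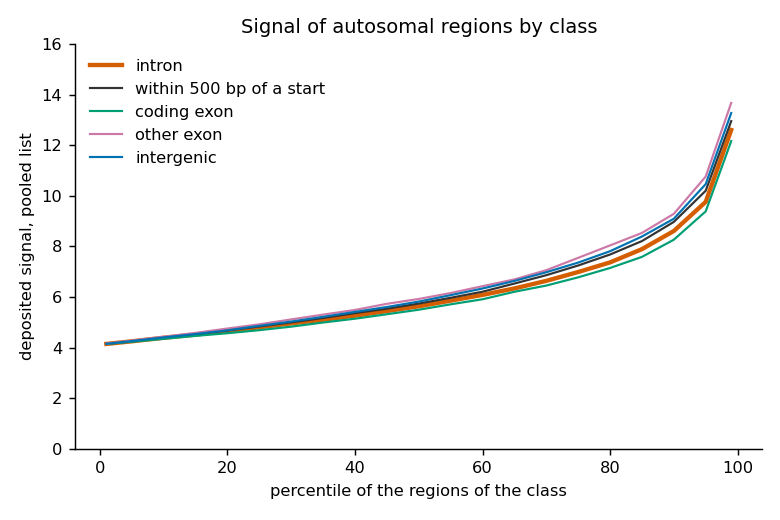
Deposited signal of the pooled list (vertical axis, authors' unit) at the 1st to 99th percentile of each autosomal class. The 5 curves run close together up to the median, and the intronic curve (thick) lies between coding exons and starts at the upper end, with 9.76 at the 95th percentile against 10.2 at starts.

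Few members of the pooled list passed a stricter limit. A deposited q-value below 0.05 was reached by 281 members (4.463%), against 5.43% of all autosomal regions, 5.693% of start regions and 6.495% of intergenic regions. This share depended on the list, since the same limit was passed by 964 intronic regions of the replicate 1 list (15.04%) and by 2575 of the replicate 2 list (56.44%). A region of both replicate lists was met by 953 members (15.14%), against 17.3% of all autosomal regions, while a region of replicate 1 was met by 61.5% of members and a region of replicate 2 by 35.74%. A total of 1127 members (17.9%) met neither replicate list. Of the 281 members with q below 0.05, 143 met both lists (50.89%), against 57.1% of such autosomal regions. The authors' list thresholded for reproducibility between replicates held 0 members, against 0.0498% of autosomal regions, which were 12 peaks. The thresholded list held 48 regions in all, and their ranks in the pooled list are not given here. The strongest member ranked 54 in the pooled list. Within rank 1000 in both replicates there were 4 members, against 0.0829% of autosomal regions, which were 20.

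The strongest member lay in Y111B2A.12, at chrIII:12612520-12612823, in intron 4, which is 7076 bp long. Its signal was 18.84 in the pooled list, 15.31 in replicate 1 (rank 42) and 3.214 in replicate 2 (rank 9860). It was the only member with q below 0.01, at 0.008264, and its window held an AGGACA half-site and a GA repeat. The next was in the first intron of vhp-1, a phosphatase of stress-activated MAP kinases, at chrII:5337089-5337392. Its signal was 18.04 in the pooled list, 13.82 in replicate 1 (rank 58) and 3.409 in replicate 2 (rank 8432). T28F4.1 followed with a signal of 17.78 in the pooled list, 12.14 in replicate 1 (rank 120) and 5.017 in replicate 2 (rank 2099). These 3 regions were near the top of the replicate 1 list and lower in that of replicate 2.

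Y54G2A.37, zfp-1 and C26C6.4 came next by pooled signal. The Y54G2A.37 region, in an intron of 179 bp and 57 bp from an annotated piRNA gene, had a pooled signal of 17.52, with rank 1891 in replicate 1 and rank 1760 in replicate 2. The strongest region of zfp-1, a chromatin reader related to mammalian AF10, had a pooled signal of 17.07, with rank 3023 in replicate 1 and rank 801 in replicate 2. In C26C6.4 a region of signal 16.79 ranked 12371 in replicate 1 and 2268 in replicate 2. The replicate lists differ in length (30000 and 23934 regions), so the close ranks of Y54G2A.37 give no order between replicates.

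The 15 strongest members had pooled signals from 14.24 to 18.84. Of these, 14 met a region of replicate 1 and 13 a region of replicate 2. The shares were 94% and 66% among the 50 strongest, and 61.5% and 35.74% among all members. Ranks within 1000 were reached by 9 of the 15 in replicate 1 and by 2 in replicate 2. unc-13, which primes synaptic vesicles for release, held a region of signal 15.68 that ranked 9378 in replicate 1 and was met by no region of replicate 2. tag-273 held one of signal 15.17, with rank 637 in replicate 1 and no region in replicate 2. shc-2, an adaptor of the Shc family, held one of signal 14.31, with no region in replicate 1 and rank 9978 in replicate 2. These 3 ranked high in the pooled list and had no overlapping region in one of the replicates.

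The others of this set sat in genes of varied roles. ccch-1, a CCCH zinc finger gene, had a signal of 15, and rib-1, which acts in heparan sulfate synthesis, had 14.87. The rib-1 summit lay in an intron of 49 bp, and its region of 304 bp extended past that intron. bre-3, a glycosyltransferase of glycolipid synthesis, had 14.74 in an intron of 12093 bp, and malt-1, related to the mammalian MALT1 paracaspase, had 14.65. ceh-48, a ONECUT homeobox gene, had 14.58, and hlh-30, the worm TFEB that regulates autophagy and lysosome genes, had 14.24. The introns of these 15 regions ranged from 49 to 12093 bp, and 6 of them were first introns. First introns held 24.78% of all members and 23.06% of the bases open to the rule. A chromosome centre held 11 of the 15 summits, against 50.14% of all members and 41.25% of the bases. The GC content of the windows ranged from 25.37% to 52.74%, against 31.93% over all bases open to the rule.

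A second set was chosen by the replicates rather than by the pooled signal, taking the 10 members with the best value of their worse replicate rank. The best was in Y54G11A.1, with rank 751 in replicate 1 and rank 663 in replicate 2 and a pooled signal of 10.42, and its window had 1 other close match in the genome. mnk-1, a kinase that acts downstream of MAP kinases on translation, had rank 463 in replicate 1 and rank 837 in replicate 2 with a pooled signal of 13.4. ccch-1 had rank 374 in replicate 1 and rank 855 in replicate 2, and was in both sets. C25E10.12 had rank 929 in replicate 1 and rank 368 in replicate 2, yet a pooled signal of only 4.318 and pooled rank 27760. The replicate 1 region met there had its summit outside the eligible introns of the gene. Y54G11A.1, mnk-1, ccch-1 and C25E10.12 held the 4 members within rank 1000 in both replicates.

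The rest of this set included nhr-49, Y50D7A.1, fos-1, unc-22 and Y54G2A.37. nhr-49, a nuclear receptor that controls fat metabolism, ranked 858 in replicate 1 and 1576 in replicate 2. fos-1, the worm Fos transcription factor, ranked 1416 in replicate 1 and 1726 in replicate 2, and 2 neighbouring pooled regions met the same replicate regions there. unc-22, which encodes the giant muscle protein twitchin, ranked 1841 in replicate 1 and 1046 in replicate 2, with an AGTGCA half-site in its window. All 10 regions of this set had ranks of 1891 or better in both replicates, and 2 of the 10 held a half-site.

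**Figure D3:**
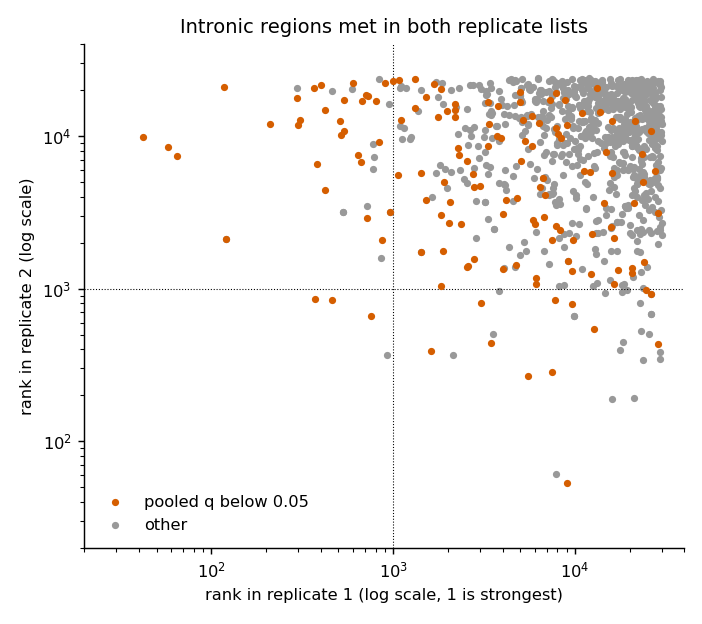
Rank in replicate 1 (horizontal) against rank in replicate 2 (vertical), both on log axes, for the 953 members met by both replicate lists; orange points had a pooled q-value below 0.05. Dotted lines mark rank 1000, and 4 points lie within it on both axes, 3 of them orange.

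The gene zfp-1 stood out for several strong regions in little intronic sequence, and was looked at further after these values were seen. It held 7 members in 5.02 kb of eligible intron, of which 5 had q below 0.05 and 5 met both replicate lists. The 5 had pooled signals of 17.07, 12.67, 12.52, 10.44 and 10.39. Their replicate 1 ranks, in the same order, were 3023, 7516, 295, 386 and 709. Their replicate 2 ranks were 801, 283, 17603, none and 18440. None of the 5 was within rank 1000 in both replicates. The 6 regions of its first introns had GC contents from 17.41% to 52.74%.

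In all, 10 genes had 2 or more members with q below 0.05, and those other than zfp-1 had 2 each. vhp-1, with 6 members in 9.783 kb, had signals of 18.04 and 13.75 in 2 different first introns, with replicate 1 ranks of 58 and 493 and replicate 2 ranks of 8432 and none. The 4 weaker vhp-1 regions had signals from 5.574 to 9.504. malt-1 had both of its members past this limit, with signals of 14.65 and 12.13. The remaining genes were C26C6.4, unc-13, lim-9, pgph-2, saeg-1, ZK180.6 and rpoa-1. daf-16, drawn beside zfp-1 and vhp-1, held 9 members spread over 18.93 kb with signals from 4.54 to 9.759. Of the 9, 0 had q below 0.05, against 4.445% of members over all genes. With so few members this count says little about daf-16.

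**Figure D4:**
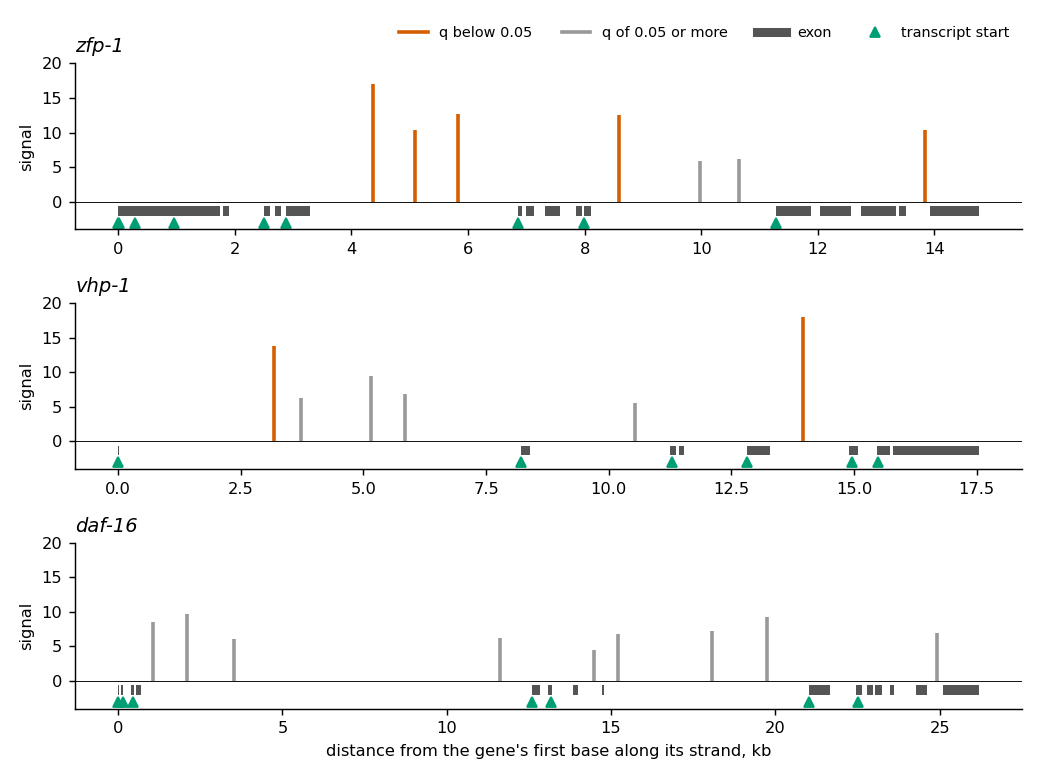
Signal of each member (vertical bars) along zfp-1, vhp-1 and daf-16 by distance from the first base of the gene in kb, with exons below the axis and annotated transcript starts as triangles. Orange bars had q below 0.05, 5 of 7 in zfp-1, 2 of 6 in vhp-1 and 0 of 9 in daf-16. Over all genes the share was 4.445% of members.

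Across genes the number of members followed the amount of intronic sequence. Of 14359 autosomal protein-coding genes with bases open to the rule, 3671 (25.57%) held at least 1 member, 2409 held exactly 1, 194 held 5 or more and 19 held 10 or more. Host genes had a median of 2.12 kb of such sequence and the other genes 0.4005 kb. A member was found in 10.58% of genes with up to 1 kb, in 56.99% of genes with 2 to 5 kb and in all 55 genes with more than 20 kb. The rate per kb changed little over these bins, with 0.2998 members per kb in the smallest genes, 0.2802 with 5 to 10 kb and 0.2984 in the largest, against 0.2926 over all genes.

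The genes with the most members were mostly long. gcn-1, an activator of the GCN2 stress kinase, held 18 in 37.12 kb. None of the 18 had q below 0.05, against 4.445% of members over all genes. lim-9, a LIM domain gene of muscle attachments, held 16 in 29.8 kb, and kcc-2, a potassium-chloride cotransporter, held 14 in 24.62 kb. fkh-7, a forkhead transcription factor, held 13 in 18.07 kb, or 0.7196 per kb. cox-6B, a cytochrome c oxidase subunit with 52.21 kb, also held 13, or 0.249 per kb, and shared its strongest region with cosa-1, a meiotic crossover gene in the same interval. crh-1, the worm CREB gene, and kcnl-2, a potassium channel gene, held 13 as well. Of the first 5 genes, gcn-1, lim-9, kcc-2 and fkh-7 lay above the rate over all genes, at 0.4849, 0.5368, 0.5687 and 0.7196 per kb. cox-6B lay below it. These genes were picked for their number of members, which favours high rates.

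**Figure D5:**
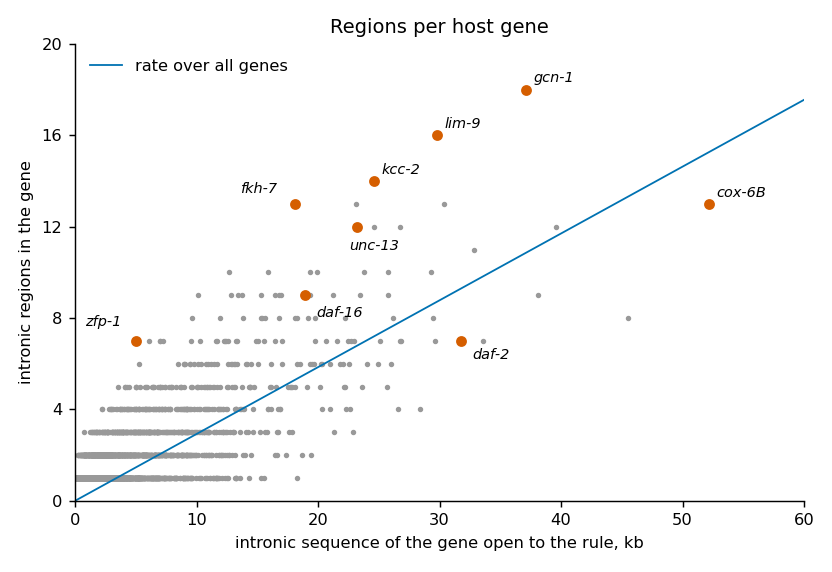
Number of members in each of the 3671 host genes against the kb of intron open to the rule; the line is the rate over all genes, 0.2926 per kb. Genes without a member are not drawn, and named genes are in orange.

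DAF-12 acts in dauer control, and genes of the dauer and dafachronic acid pathways were listed as a group, whether or not they are tied to DAF-12. Of 26 such autosomal genes with eligible introns, 12 held a member, 44 members in all, or 0.3818 per kb, against 0.2926 over all genes. Over all genes 25.57% held a member, with a median eligible intron of 0.591 kb, against 2.495 kb in this group. The rate per kb was 0.2864 in replicate 1, against 0.2981 over all genes in that replicate, and 0.3297 in replicate 2, against 0.2116. The replicates thus lay on different sides of the rate over all genes. Of the 44 members, 1 had q below 0.05 (2.273%, against 4.445% over all genes) and 8 met both replicate lists (18.18%, against 15.07%).

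The region with q below 0.05 lay in daf-5, a Ski-related gene of the dauer TGF-beta pathway. It was in an intron of 14446 bp, with a pooled signal of 12.82, rank 3451 in replicate 1 and no region in replicate 2. daf-16, the FOXO factor of insulin signalling, held 9 members and the strongest had a signal of 9.759, with rank 5485 in replicate 1 and rank 11726 in replicate 2. daf-2, the insulin receptor, held 7 in 31.78 kb and the strongest had a signal of 8.122. din-1, the co-repressor of DAF-12, held 3 with signals up to 6.858. No member lay in daf-36 (0.671 kb of eligible intron) or hsd-1 (2.56 kb), which act in dafachronic acid synthesis. The same held for daf-7 (0.158 kb) and daf-4 (1.247 kb), a ligand and a receptor of the TGF-beta pathway. Over all genes only 25.57% held a member, so single absences are ordinary. The replicate 2 list had 1 intronic region in daf-36. daf-9 lies on the X chromosome and is not an autosomal gene.

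Heterochronic genes held 16 members in 6 of 14 genes, at 0.3001 per kb. The rates were 0.3189 in replicate 1 and 0.2439 in replicate 2, both above those over all genes. Over all genes 25.57% held a member, with a median eligible intron of 0.591 kb, against 2.017 kb in this group. Of the 16, 2 had q below 0.05 (12.5%, against 4.445% over all genes) and 1 met both replicate lists (6.25%, against 15.07%). lin-42, the worm Period gene, held 4, and the strongest had a pooled signal of 12.66 with rank 435 in replicate 1 and no region in replicate 2. mab-10, a NAB-type cofactor of LIN-29, held 2, the stronger with a signal of 10.88, rank 3793 in replicate 1 and no region in replicate 2. lin-29, a zinc finger factor of the larval-to-adult switch, held 4 with signals up to 9.426. dre-1, an F-box gene, held 3 and lin-41, a TRIM-NHL gene, held 1. lin-28 and nhr-23 held 0 members in 0.716 and 1.981 kb, although nhr-23 had 1 intronic region in each replicate list.

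For the other gene groups the pooled rate is set against 0.2926 per kb over all genes. The replicate rates are set against 0.2981 in replicate 1 and 0.2116 in replicate 2. Counts of genes with a member stand against 25.57% over all genes. Such counts follow the amount of intron per gene, so they are not compared between groups. Nuclear receptor genes held members in 56 of 246 genes at 0.3331 per kb (0.3484 in replicate 1 and 0.2718 in replicate 2), with nhr-274 (signal 12.9), nhr-181 (11.54) and nhr-21 (11.47) the strongest. Of these, nhr-21 met both replicates, at rank 2555 in replicate 1 and rank 1392 in replicate 2. Wnt pathway genes held members in 14 of 27 genes at 0.3576 per kb, led by mom-5, a Frizzled receptor, with a signal of 7.996, and 0 of their 31 members had q below 0.05, against 4.445% over all genes. The Wnt rate was 0.2884 per kb in replicate 1 and 0.2768 in replicate 2, on different sides of the rates over all genes. Muscle genes held members in 22 of 48 genes at 0.3227 per kb in the pooled list, but at 0.2636 in replicate 1 and 0.2091 in replicate 2, both below the rates over all genes. Their strongest included unc-22 at 13.41 and ttn-1, the worm titin, at 9.484.

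Ion channel genes held 200 members in 99 of 211 genes at 0.3011 per kb. Their median eligible intron was 1.837 kb, against 4.55 kb in adhesion and guidance genes, 0.401 kb in chemoreceptors and 0.591 kb over all genes. Their strongest were nca-2, a sodium leak channel (signal 13.68, rank 3454 in replicate 1 and rank 439 in replicate 2), best-7, a bestrophin (12.68), and unc-103, an ERG-type potassium channel (12.21). Adhesion and axon guidance genes held 132 members in 41 of 60 genes at 0.291 per kb, among them smp-2, a semaphorin gene, with a strongest signal of 12.2. In the pooled list homeobox genes were at 0.2743 per kb, lipid metabolism genes at 0.2924, germline genes at 0.3009, intestinal genes at 0.3131 and chemoreceptors, with 194 members in 176 of 1251 genes, at 0.2688.

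Several groups changed sides between lists. Lipid metabolism genes were at 0.3987 per kb in replicate 1 and 0.1683 in replicate 2. Intestinal genes, above the rate over all genes in the pooled list, were at 0.2168 in each replicate, below it in replicate 1 and above it in replicate 2. Chemoreceptors were at 0.2938 in replicate 1, below it, and at 0.23 in replicate 2, above it. Adhesion and axon guidance genes, below it in the pooled list, were at 0.3108 in replicate 1 and 0.2491 in replicate 2, above it. Seam and hypodermal genes were at 0.2437 in the pooled list, 0.3046 in replicate 1 and 0.1422 in replicate 2. Collagens were at 0.2733 in the pooled list, below the rate over all genes, and at 0.3644 in replicate 1 and 0.2429 in replicate 2, above it. Ribosomal protein genes had a pooled rate of 0.4496 that rests on 1 member, in rpl-3, with 2.224 kb of eligible intron in 25 genes and 0 regions that met the rule in either replicate list.

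Position inside genes was close to that of the eligible bases. First introns held 1560 members (24.78%), against 23.06% of the bases, with 24.65% in replicate 1 and 25.78% in replicate 2. Among the 281 members with q below 0.05 the share was 28.83%. Density fell with distance from the nearest start, with 322.8 per Mb up to 1000 bp, 293.6 from there to 2000 bp, 279.3 to 5000 bp and 251.1 to 10000 bp, and was 281.3 for the 78 members beyond. By intron length the pooled density ran from 258.2 to 320.9 per Mb, and the lists ordered the length classes differently. Introns of 10000 bp or more, at 320.9 in the pooled list, were at 308.5 in replicate 1, where those of 200 to 499 bp were higher at 333.8, and at 235.7 in replicate 2, where those under 200 bp were higher at 244.2.

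Half-sites were no more common at members than over intronic sequence at large. AGTGCA or AGGACA, on either strand and wholly within 100 bp of the summit, was found at 572 members (9.085%), against 9.274% of all bases open to the rule taken as summits. AGTGCA alone was at 5.289% of members, against 5.714% of bases, and AGGACA alone at 4.05%, against 3.795%. Regions of the other classes held a half-site in 11.29% at starts, 12.4% in coding exons, 10.35% in intergenic sequence and 13.42% in introns of the X chromosome, where 12.71% of the bases had one. Among the 50 strongest members AGTGCA was at 7 (14%), and among the 281 with q below 0.05 at 22 (7.829%). AGGACA went the other way, at 1 of the 50 (2%) and 6 of the 281 (2.135%). For AGTGCA, the strongest 50 intronic regions of each replicate list gave 6% in replicate 1 and 4% in replicate 2. The strongest 281 intronic regions gave 6.762% in replicate 1 and 5.694% in replicate 2, near the 5.714% of the bases.

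Paired half-sites were rare. At least 2 half-sites lay in 40 windows (0.6353%), against 0.8166% of bases, and some of these overlap on opposite strands. A direct repeat with a 5 bp spacer, meaning any AGTGCA or AGGACA followed in the same direction by either after 5 bases, was at 3 members (0.04765%), against 0.01944% of bases. In ulp-4, a SUMO protease gene, the repeat AGTGCAtttaaAGTGCA on the minus strand lay at chrII:8130952-8130968, and the summit was 9 bp from an annotated snoRNA gene. That region had a signal of 6.037 in the pooled list, no region in replicate 1 and rank 1243 in replicate 2. In gcn-1 the repeat AGGACAaaggaAGGACA lay at chrIII:2171016-2171032, at a region of signal 4.837 with no region in replicate 1 and rank 1053 in replicate 2. The other, in C35E7.10, had a signal of 5.031 and met neither replicate list.

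GA repeats were more frequent among the strong members. GAGAGAGA, on either strand within 100 bp, was at 97 members (1.541%), against 1.21% of bases. Regions of the other classes held it in 1.747% at starts, 0.3825% in coding exons and 2.026% in intergenic sequence. It was at 17 of the 281 members with q below 0.05 (6.05%) and at 5 of the 50 strongest (10%). The strongest 50 intronic regions of each replicate list gave 10% in replicate 1 and 4% in replicate 2. Over the whole pooled list there was no such step, with 1.493% in the upper 50% of members by signal and 1.588% in the lower 50%. In the strongest 281 intronic regions of each replicate list it was at 3.203% in replicate 1 and 3.915% in replicate 2, against 1.529% and 1.534% of all intronic regions of those lists. All 17 of the pooled list met a region of replicate 1 and 12 a region of replicate 2. Of all 281 members with q below 0.05, 91.46% met replicate 1 and 57.65% met replicate 2. The 17 included Y111B2A.12, both strong regions of vhp-1, ceh-48, zfp-1, pde-4, a cyclic nucleotide phosphodiesterase gene, and atx-2, the worm ataxin-2. How far repeat content or read mapping moves with these signals was not tested.

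The E-box CACGTG served as a further motif and was at 2.478% of members, against 2.917% of bases, and at 2.491% of those with q below 0.05. Repeat-masked sequence (lower case in the assembly) held 55.56% of summits, against 55.35% of bases, and 46.62% of those with q below 0.05. The share was 54.09% for the strongest 281 regions of replicate 1 and 40.21% for those of replicate 2. GC content over the windows of members was 31.52%, against 31.93% of all bases open to the rule.

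Chromosome centres held a larger share of the stronger members. They contained 50.14% of all members and 41.25% of the bases, but 65.12% of members with q below 0.05 and 37 of the 50 strongest (74%). The strongest 281 intronic regions of each replicate list gave 64.06% in replicate 1 and 62.63% in replicate 2. In centres 17.36% of members met both replicate lists, and in arms 12.9%.

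Small RNA genes lay near a minority of members. An annotated non-coding RNA gene was within 500 bp of 750 summits (11.91%), against 9.841% of bases, and of 48 of the 281 with q below 0.05 (17.08%). Most were piRNA genes, near 421 members (6.687%, against 4.759% of bases), which are short genes that cluster on chromosome IV. Genes typed only as ncRNA lay near 302 members (4.797%, against 4.543%), tRNA genes near 27, snoRNA genes near 20 and miRNA genes near 11. Intergenic regions had such a gene within this distance in 21.61% of cases.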

How the data were processed

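Per the labels, the submitters deposited a region list per replicate, a pooled list and a list thresholded for reproducibility, on ce10 and ce11. The pooled list is labelled as peaks and background, the input to the reproducibility threshold. The ce11 lists were used, and the ce10 lists were not used here. No aligner, peak caller, version or threshold is given in the sources used here. The deposited signal is a value per region on an unstated scale, and the deposited −log10 q-values were turned into q-values; q does not order regions as signal does. There are no counts, so depth and counting error are unknown, and the control library was not analysed here.

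Summits were placed on the Ensembl release 115 annotation of WBcel235, and coordinates are 1-based. Backgrounds were counted exactly over every base open to the rule. Regions in several genes count in each. Chromosome centres span 25% to 75% of the length. Named genes host the 15 strongest members, the 10 best in both replicates, the 5 genes with most members, up to 3 genes of each of 15 lists, or are key DAF-12 pathway genes. A lookup of other genome matches used at least 90% identity over 80% of the window. Members and lists were chosen with earlier results of these data known. The steps were tested on simulated regions. Tools were Python 3.11.15, numpy 2.4.6, pandas 2.3.3, matplotlib 3.10.9 and blastn 2.17.0.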

Additional observations from a re-analysis of the deposited data

How the results depend on the processing

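Of 39 alternatives, 16 left a value within its limit and 23 moved it. The number of members was 2517 with starts kept 2000 bp away and 281 with q below 0.05. The intronic share of autosomal regions followed that of the bases: 31.38% at 200 bp (bases 30.8%), 18.78% at 1000 bp (19.43%) and 10.44% at 2000 bp (11.13%), with 21.45% for q below 0.05 and 23.91% to 26.49% in the single replicates. Both replicate lists were met by 9.784% when 50% of the shorter region had to overlap, by 6.703% when summits had to lie within 100 bp, and by 23.95% of the upper 50% by signal. The 281 members with q below 0.05 became 1 at 0.01, 469 at 0.1 and 186 with starts 1000 bp away, and the single replicate lists gave 964 to 2575. Half-site shares were 4.447% within 50 bp (bases 4.5%), 18.34% within 200 bp (18.13%), 9.964% for q below 0.05 and 9.078% to 9.864% in the single replicates. Host genes numbered 271 for q below 0.05. First introns held 17.48% with starts 1000 bp away (bases 16.76%), 28.83% for q below 0.05 and 24.65% to 25.78% in the single replicates. No paired analysis was possible because all samples form 1 group. Few regions pass q below 0.05, the 2 replicates order members differently, and depth is unknown, so single regions are weakly placed.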

Other observations

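Some further named genes are given as single values, without a claim for their groups. tra-1, the Gli-family factor that ends the sex determination pathway, held one of pooled signal 12.9 in an intron of 7880 bp, with rank 918 in replicate 1 and no region in replicate 2. tra-2, the membrane protein upstream of it, held one of 8.692, with rank 10854 in replicate 1 and rank 10028 in replicate 2. ptr-16, a patched-related gene, held one of 13.09, with rank 95 in replicate 1 and no region in replicate 2. mlt-4, a molting gene, held one of 10.31, with rank 9782 in replicate 1 and rank 2067 in replicate 2. The tra-1 and ptr-16 regions were within rank 1000 in replicate 1 and had no region in replicate 2.

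Chemoreceptor genes, which encode receptors of sensory neurons, had 8 of 194 members with q below 0.05 (4.124%), against 4.445% over all genes, and their 3 strongest are given here. srt-52 had one of signal 13.4, with rank 508 in replicate 1 and rank 12540 in replicate 2. sra-12 had one of signal 12.17 in an intron of 43 bp with an AGTGCA half-site, with rank 841 in replicate 1 and rank 9089 in replicate 2. srz-31 had one of signal 11.78 in an intron of 45 bp, with rank 536 in replicate 1 and rank 17084 in replicate 2. All 3 ranked far better in replicate 1. The replicate 1 region met at srz-31 and the replicate 2 region met at sra-12 had summits outside the eligible introns of those genes. Pooled regions are 304 bp wide, so those of sra-12 and srz-31 extended past their short introns.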
